A study of Chlamydomonas reinhardtii with 4 samples.

Results

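Photosystem I of the green alga Chlamydomonas reinhardtii was followed through 7 transcript models of the 14557 on an oligonucleotide array. They were taken by their model numbers from the photosynthesis genes in the study's table for nitrogen starvation, which averages the same 4 time points. Of the 7 models, 5 are listed as antenna proteins, namely LHCA8 (model 187025), LHCA7 (192961), a model listed as LHCA6 (186299), LHCA4 (153678) and a model listed as LHCA1 (206001). The other 2 are listed as core subunits, PSAL (205940) and PSAK (192478). Each model was represented by 3 oligonucleotide probes, called slots 1 to 3 here, which made 21 of the 43671 probes on the array. The tested RNA came from cells of the wild type cc3491 that had been without nitrogen for 24, 48, 72 or 96 h in acetate medium (TAP minus N) under constant light, and the reference RNA came from the same strain at 0 h, in early stationary phase before the starvation. Starved RNA carried Cy5 and 0 h RNA carried Cy3 on each of the 4 arrays, so dye and starvation cannot be told apart. One array was hybridised per time point with RNA of 3 pooled biological replicates, and so the spread given below is that between the 4 time points, which are not replicates of each other.

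Photosystem I takes electrons from plastocyanin on the lumen side of the thylakoid membrane and passes them to ferredoxin on the stromal side. Its LHCA proteins bind chlorophyll and carotenoids, most of them in a belt on one flank of the core, and pass excitation energy inwards. PSAL and PSAK are small membrane subunits of the core. PSAL lies on the side away from that belt, where PSAH and PSAO also bind, and PSAK lies at the edge of the complex.

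The names need care, because the study's tables give LHCA1, LHCA7 and PSAK to a second model each and model 186299 also appears under another LHCA number. By their old locus tags, 6 of the 7 models matched a gene of the RefSeq annotation of assembly Chlamydomonas_reinhardtii_v5.5, namely CHLRE_06g272650v5 for LHCA8, CHLRE_06g278213v5 for LHCA7, CHLRE_10g425900v5 for 186299, CHLRE_11g467573v5 for LHCA4, CHLRE_09g401022v5 for PSAL and CHLRE_17g724300v5 for PSAK. Model 206001 was not matched to a gene there. The annotation used gave no symbol besides the locus tag, so the names of all 7 models rest on the study's tables alone. They are used here as the study gives them.

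Probes of one model may share sequence, so that they are not independent measurements. This is shown for the 2 listed photosystem I models whose probes could be read from the study's probe table, the second model listed as LHCA7 (183363) and PSAH (182959). Slots 1 and 2 of 183363, both 60 bases long, overlapped by 35 bases, of which the last 30 are printed in capitals. For PSAH, slot 1 with 60 bases and slot 2 with 51 bases shared 12 bases, printed in full.
183363, shared by slots 1 and 2: CTTCAAATGACTAACATGGCACCTGTGTGG
182959, shared by slots 1 and 2: AGTGTGTATCAT
Slots 1 and 2 of 183363 were both at the scanner limit at 0 h on each of the 4 arrays, and their mean log2 ratios of −1.63 and −1.59 lay close together. The third probe of that model, whose overlap with the other probes was not examined, was not saturated and averaged −2.36.

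Under nitrogen starvation 6 of the 7 models fell, all by more than 2-fold on average, whereas 206001 had a positive log2 ratio at every time point. The log2 ratio is that of starved over 0 h RNA after background correction and loess, a model takes the median of its kept probes, and a model was called if its mean over the 4 arrays passed an adjusted p of 0.05 in limma with a change of at least 2-fold. Of the 10772 models tested on the whole array, 665 were called lower, which is 6.17%, and 374 were called higher, which is 3.47%. Of the 7 photosystem I models 6 were called lower and 0 higher, and the median of the 7 was −1.74, compared with 0.05 for all models tested. The study's table from which the 7 were taken averages the same time points and gives all 7 as lowered. Their direction is therefore not independent evidence. The study's methods name Holm adjustment in place of the one used here. Under Holm adjustment LHCA4 alone, 1 of the 7 models, was called lower, and 1.24% of all models tested. Where a probe was saturated at 0 h, that is, read the highest value the scanner gave, its ratio is a lower bound of the decrease. A model whose median uses such a probe is therefore given as at least so many fold lower. All 6 models were also called lower when saturated probes were left out.

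**Figure D1:**
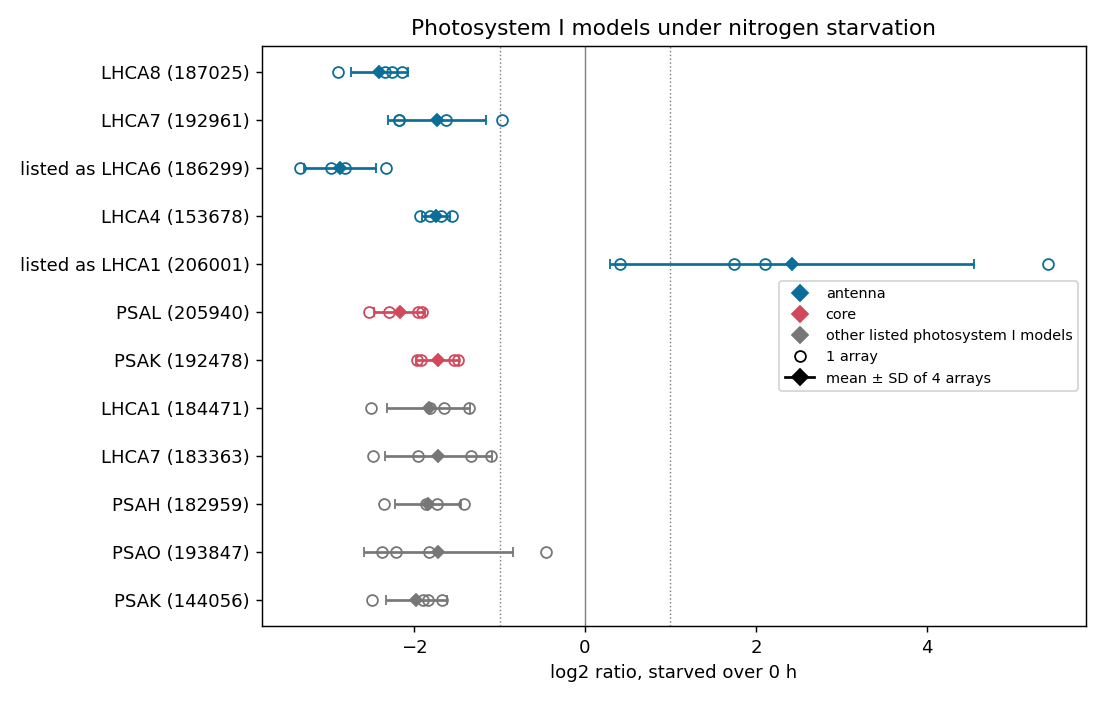
The log2 ratio of starved over 0 h RNA is on the horizontal axis and each line is a transcript model, with antenna models in blue, core subunits in red and other listed photosystem I models in grey. Open circles are single arrays, diamonds with bars are the mean ± SD of the 4 arrays, and dotted lines mark a 2-fold change. Of the 12 models 11 lie left of 0 on all arrays, and 206001 lies right of 0 with 5.42 at 96 h.

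Among the antenna models, 186299 fell furthest, with log2 ratios of −2.81 at 24 h, −3.34 at 48 h, −2.33 at 72 h and −2.97 at 96 h. The mean was −2.86 ± 0.42 (SD, n = 4 arrays), at least 7.27-fold lower (limma, adjusted p = 0.000354), since the median rests on a saturated probe on 3 of the 4 arrays. The 3 probes gave −2.78, −2.82 and −3.17. At 0 h slots 1 and 2 read 65529 on every array, the scanner limit, and gave decreases of at least 6.88-fold and at least 7.06-fold. All bounds are taken after normalisation of both channels and so need not equal the quotient of the signals, and without a dye swap they are open to dye bias. Slot 3 of this model was not saturated, with median signals of 138, 111, 178 and 132.5 under starvation at 24, 48, 72 and 96 h, against 1074, 1028.5, 1045 and 1098.5 at 0 h on the same arrays. All starved signals of this probe were below all of its 0 h signals. Here and below, such comparisons are of raw signals in 2 dyes, which can differ without a change in the normalised ratio. Slot 3 of 206001, near background, read lower in Cy5 on every array at a mean log2 ratio of −0.07. The share of all probes without overlap was not computed.

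LHCA8 had log2 ratios of −2.34, −2.90, −2.14 and −2.26 at 24, 48, 72 and 96 h, and averaged −2.41 ± 0.34 (SD, n = 4 arrays), which is at least 5.30-fold lower (limma, adjusted p = 0.000332). Its unsaturated probe, slot 2, read 2520, 1595, 2445 and 2063.5 under starvation, against 9926, 9667.5, 9348 and 9153.5 at 0 h. The groups did not overlap, and the lowest starved signal was that at 48 h. The other 2 probes reached the scanner limit at 0 h on every array and gave decreases of at least 6.76-fold for slot 1 and at least 4.67-fold for slot 3. The ratio of the unsaturated probe, −2.38, lay between the ratios of both saturated ones.

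LHCA4 was the most even antenna model, with −1.82, −1.93, −1.55 and −1.68 at 24, 48, 72 and 96 h and a mean of −1.74 ± 0.16 (SD, n = 4 arrays), a 3.35-fold decrease (limma, adjusted p = 0.000186). None of its probes was saturated. They nevertheless differed in size, with means of −2.60 for slot 1, −1.34 for slot 2 and −1.74 for slot 3. Slot 1 was the brightest and read 2995, 1818, 3808.5 and 3061 under starvation, against 14821, 15141, 14779 and 15406 at 0 h. Slot 2 read 156, 170, 202 and 188 under starvation, against 379, 459, 436 and 388 at 0 h. Both probes were lower under starvation on every array.

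LHCA7 was the antenna model whose probes disagreed most on the time course. As the median of 3 probes it gave −0.97, −2.18, −1.62 and −2.17 at 24, 48, 72 and 96 h and a mean of −1.74 ± 0.57 (SD, n = 4 arrays), a decrease of at least 3.33-fold (limma, adjusted p = 0.00414), since saturated probes set the median at 24, 48 and 72 h. The bright probes, slots 1 and 3, were at the scanner limit at 0 h on all 4 arrays. Slot 1 read 36366, 6430, 21773 and 11356 under starvation, and after normalisation the decreases were at least 1.96-fold at 24 h, 10.6-fold at 48 h, 3.08-fold at 72 h and 5.66-fold at 96 h. Slot 3 moved the same way with starved signals of 55674, 14798, 32084 and 21012.5. Both were highest at 24 h and lowest at 48 h. The dim probe, slot 2, read 170, 144, 151 and 132 under starvation, against 564, 554, 513 and 547 at 0 h, and its log2 ratio of −2.03, −2.06, −1.94 and −2.17 had a mean of −2.05 and an SD of 0.094 over the 4 arrays, compared with 1.06 for slot 1 and 0.785 for slot 3.

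**Figure D2:**
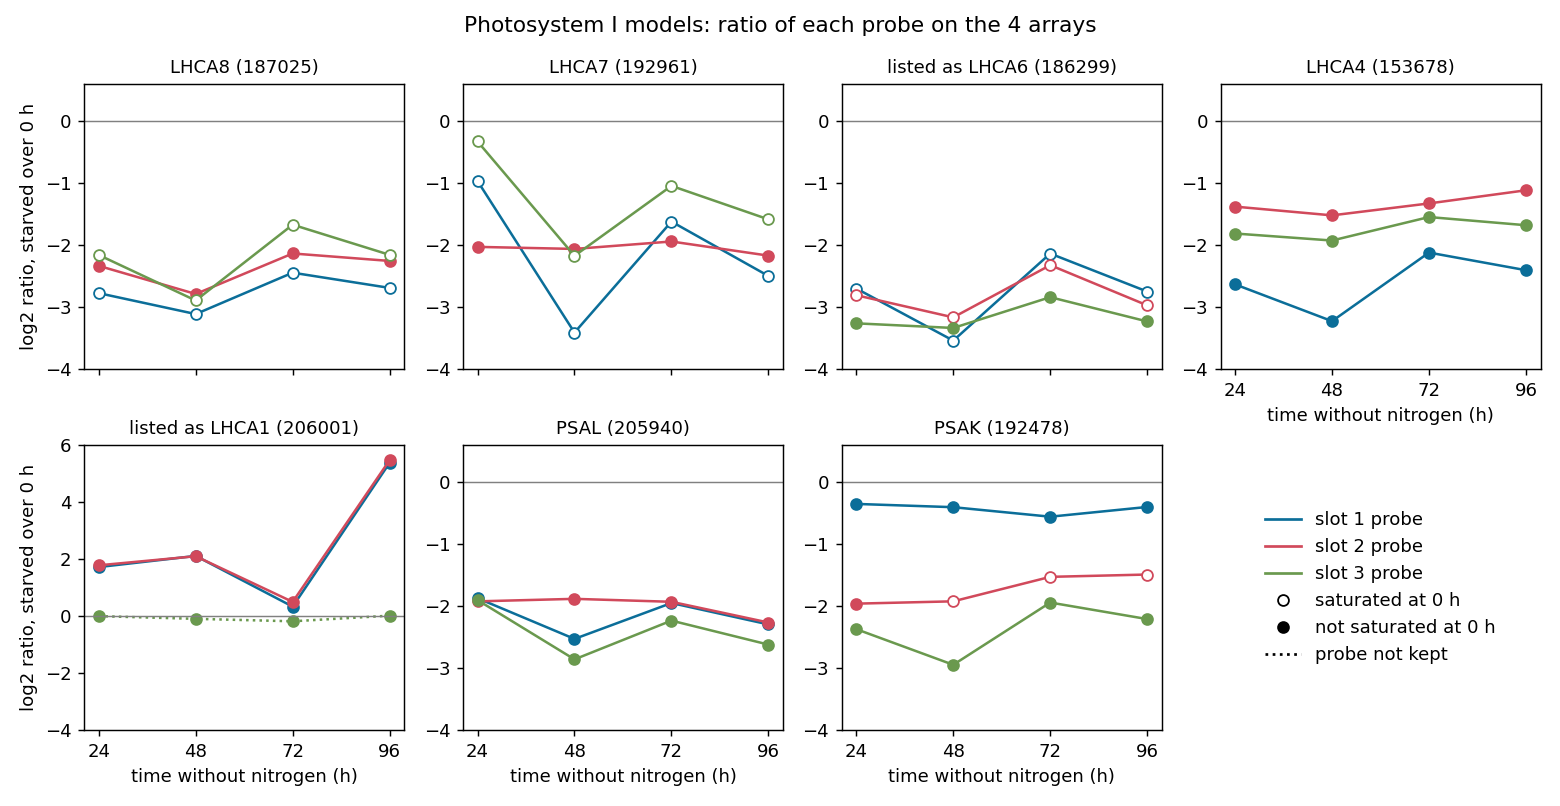
Each panel is a photosystem I model, with the time without nitrogen in hours on the horizontal axis and the log2 ratio of starved over 0 h RNA on the vertical axis, which reaches 6 for 206001. Each line is 1 probe on the 4 arrays, open circles mark arrays on which the probe was saturated at 0 h, and the dotted line is the probe that was not kept. Of the 18 probes of the 6 falling models 14 were lowest at 48 h.

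Both core subunits fell to a similar extent. PSAL had −1.90, −2.53, −1.95 and −2.29 at 24, 48, 72 and 96 h with a mean of −2.17 ± 0.30 (SD, n = 4 arrays), which is 4.50-fold lower (limma, adjusted p = 0.000332). It was the one falling model apart from LHCA4 with no saturated probe, and its slots 1, 2 and 3 agreed at −2.16, −2.00 and −2.40. Slot 1 read 6741, 3661, 5973 and 4902.5 under starvation, against 20437.5, 19231, 20998.5 and 23315.5 at 0 h, so that the highest starved signal was well under the lowest 0 h signal.

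PSAK had −1.96, −1.92, −1.53 and −1.49 at 24, 48, 72 and 96 h and a mean of −1.73 ± 0.25 (SD, n = 4 arrays), a decrease of at least 3.31-fold (limma, adjusted p = 0.000448). Without the saturated probe the mean was −1.40 ± 0.19. Its probes differed more than those of any other model of the 7, by 1.94 on the log2 scale between slots 1 and 3. Slot 3 averaged −2.37 and read 11279.5, 6365, 13604 and 10689.5 under starvation, against 50880.5, 46479, 49954 and 49942 at 0 h. Slot 2, the median probe, was saturated at 0 h on 3 arrays and averaged −1.73. Slot 1 averaged only −0.43 and was dim, with 72, 64.5, 69 and 69 under starvation, against 128, 129, 137 and 136.5 at 0 h, and it was well above background under starvation on 1 array. From slot 1 alone PSAK would not have passed the 2-fold limit.

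At the level of single probes, 20 of the 21 were kept, which required a signal well above background in one channel on all 4 arrays. Of these, 17 were called lower and 0 higher, compared with 1821 of 22132 kept probes on the array called lower, which is 8.23%. As for the models, this direction is not independent evidence. The kept probes without a call were PSAK slot 1 and both kept probes of 206001. All 18 probes of the 6 falling models were lower under starvation on all 4 arrays, and no member probe was saturated under starvation on any array. Saturation at 0 h on all 4 arrays affected 6 of the 21 probes, which is 28.6%, compared with 380 of 43671 probes, or 0.870%, on the array as a whole. The 6 belong to LHCA8, LHCA7 and 186299, with 2 probes each.

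In the 3 antenna models with both kinds of probe and in 3 more photosystem I models of the study's tables, saturated and unsaturated probes of the same model could be set side by side. The unsaturated probe had a lower log2 ratio than both saturated ones in 4 of these 6 models. In 186299 it gave −3.17, compared with −2.82 and −2.78. In PSAO (193847), a core subunit next to PSAL, it gave −3.46, compared with −1.72 and −0.44. The probe at −0.44, slot 1, was also at the scanner limit under starvation at 24 h, so its ratio there is not a bound. LHCA8 and LHCA7 (192961) were the exceptions, their unsaturated probe lying between both saturated ones.

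RNA of 0 h was measured on all 4 arrays, which gives the spread of a probe's level between arrays, although the sources used here do not say whether it was 1 extract. In the 18 probes of the falling models the SD of the normalised starved level over the 4 time points ranged over 0.033 to 1.02 on the log2 scale with a median of 0.293, and that of the 0 h level ranged over 0.031 to 0.173 with a median of 0.056. In 16 of the 18 probes the starved level varied more than the 0 h level. The share of all kept probes for which this held was not computed, so the 16 cannot be set against it. The 18 include 6 probes whose 0 h signal was always capped by the scanner, and PSAK slot 2, capped 3 times. For these saturated probes the small SD at 0 h is that of a capped value. Their part in the count of 16 and in the 0 h median therefore does not show how steady the 0 h RNA was. Over all kept probes of the array the median SD was 0.196 for the starved level and 0.080 for the 0 h level.

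Most of the falling models were lowest at 48 h. The log2 ratio was lowest on the 48 h array in 5 of the 7 models, compared with 129 of the 665 models called lower, 19.4%, and 1761 of the 10772 tested, 16.3%. The exceptions were PSAK, lowest at 24 h, and 206001, lowest at 72 h. In LHCA7 the values at 48 and 96 h were nearly equal, −2.18 and −2.17, and its unsaturated probe was lowest at 96 h. Slot 2 of PSAL was also lowest at 96 h. Of the 5 further photosystem I models of the study's tables, 4 were lowest at 48 h as well. With 1 array per time point, a dip at 48 h and a property of the 48 h array cannot be told apart. A linear trend over the time points was called for 16 models of the array, 0.149%, and for none of the 7. The one with the smallest p was PSAK with a slope of 0.18 ± 0.058 per 24 h (limma, SE, adjusted p = 0.349).

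The median of the 4 falling antenna models and the core mean differed by less than the probes of any falling model did. This held with all kept probes, where the smallest probe range was 0.386, in 186299. Single models lay further apart, from −2.86 for 186299 to −1.73 for PSAK. The median antenna log2 ratio was −2.08, −2.54, −1.88 and −2.21 at 24, 48, 72 and 96 h, that of the core subunits −1.93, −2.23, −1.74 and −1.89. Antenna minus core was thus −0.15, −0.31, −0.14 and −0.32, with a mean of −0.23 ± 0.10 (SD, n = 4 arrays), and no test was run on it, because 4 models and 2 models are not replicates of a class. The size and the sign depended on the probes. With slot 1 probes alone the mean difference was −1.38, with slot 2 it was −0.35, and with slot 3 it was 0.37. Without saturated probes it was −0.43 ± 0.09. In slot 1 the core mean of −1.30 includes the dim PSAK probe described above. From unsaturated probes alone the means were −3.17 ± 0.22 for 186299, −2.38 ± 0.29 for LHCA8, −2.17 ± 0.30 for PSAL, −2.05 ± 0.09 for LHCA7, −1.74 ± 0.16 for LHCA4 and −1.40 ± 0.19 for PSAK (SD, n = 4 arrays each). In that order the ranges over the arrays overlapped between LHCA8 and PSAL, PSAL and LHCA7, and LHCA4 and PSAK.

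**Figure D3:**
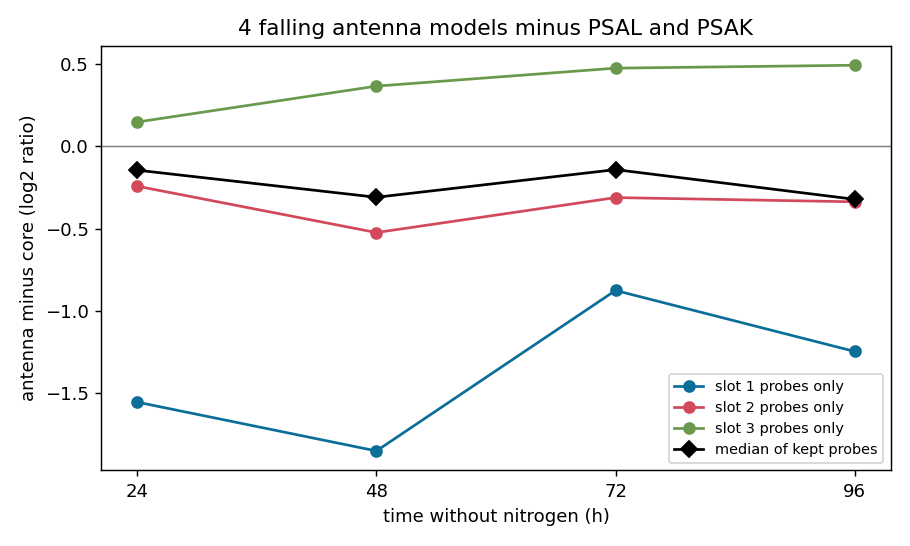
The time without nitrogen in hours is on the horizontal axis, and the vertical axis gives the median log2 ratio of LHCA8, LHCA7, 186299 and LHCA4 minus that of PSAL and PSAK. Coloured lines use the probes of 1 slot alone and the black line uses the median of the kept probes of each model. The black line lies between −0.32 and −0.14, while slot 3 averages 0.37 and slot 1 averages −1.38.

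Model 206001 took another course. Its log2 ratio was 1.75 at 24 h, 2.10 at 48 h, 0.41 at 72 h and 5.42 at 96 h, with a mean of 2.42 ± 2.13 (SD, n = 4 arrays). It was positive on 4 of 4 arrays but was not called (limma, adjusted p = 0.0701), since the spread between the time points was nearly as large as the mean. Only 3 of the 10772 models had a larger SD over the arrays, and its mean was higher than that of 10718 of them. It exceeded the median of the other 4 antenna models by 3.82, 4.64, 2.29 and 7.63 at 24, 48, 72 and 96 h, by 4.60 ± 2.24 on average. The course of this model was known when it was chosen, so these figures describe it. The study's table for nitrogen starvation gives model 206001, as LHCA1, a negative mean over the same time points. The study's text, however, names LHCA1 among the genes that were up-regulated. With the deposited ratios the mean of 206001 was also positive, at 2.97. The reason for the difference from the study's table was not tested.

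The starved channel carried most of this course. Slot 1 read 794, 995, 334.5 and 15290 under starvation at 24, 48, 72 and 96 h, against 199, 211, 234.5 and 351.5 at 0 h. Slot 2 read 615, 724.5, 261 and 11378.5 under starvation, against 159, 157.5, 180 and 248 at 0 h. Every starved signal was above the 0 h signal on its own array in both probes, but the 72 h signal of slot 1, 334.5, was below the 0 h signal of 351.5 on the 96 h array. Slot 3 was not well above background in either channel on any array, with 50.5, 49.5, 52.5 and 57 under starvation, against 90, 85, 98 and 98.5 at 0 h. The course therefore rests on 2 of the 3 probes, and these agreed within 0.165 on the log2 scale on every array.

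The 0 h level of 206001 also moved, although all arrays carried 0 h RNA in that channel. On the 96 h array it was 0.69 higher than on the other 3 arrays for slot 1 and 0.58 higher for slot 2 on the log2 scale, that is 1.62-fold and 1.49-fold. A larger excess was seen in 74 of the kept probes, 0.334%, for slot 1 and in 106, 0.479%, for slot 2. At 96 h only 6 kept probes had a higher log2 ratio than slot 1 and 3 had a higher one than slot 2. Of the 35 kept probes with a log2 ratio above 4 at 96 h and a starved level in the highest 10%, 24 also had a higher 0 h level on the 96 h array, with a median of 0.23 over the 35. The share of all kept probes with a higher 0 h level on that array was not computed, so the 24 cannot be set against it. The 35 were also picked by their 96 h values. What part the bright Cy5 signal has in the Cy3 value of such spots was not tested.

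**Figure D4:**
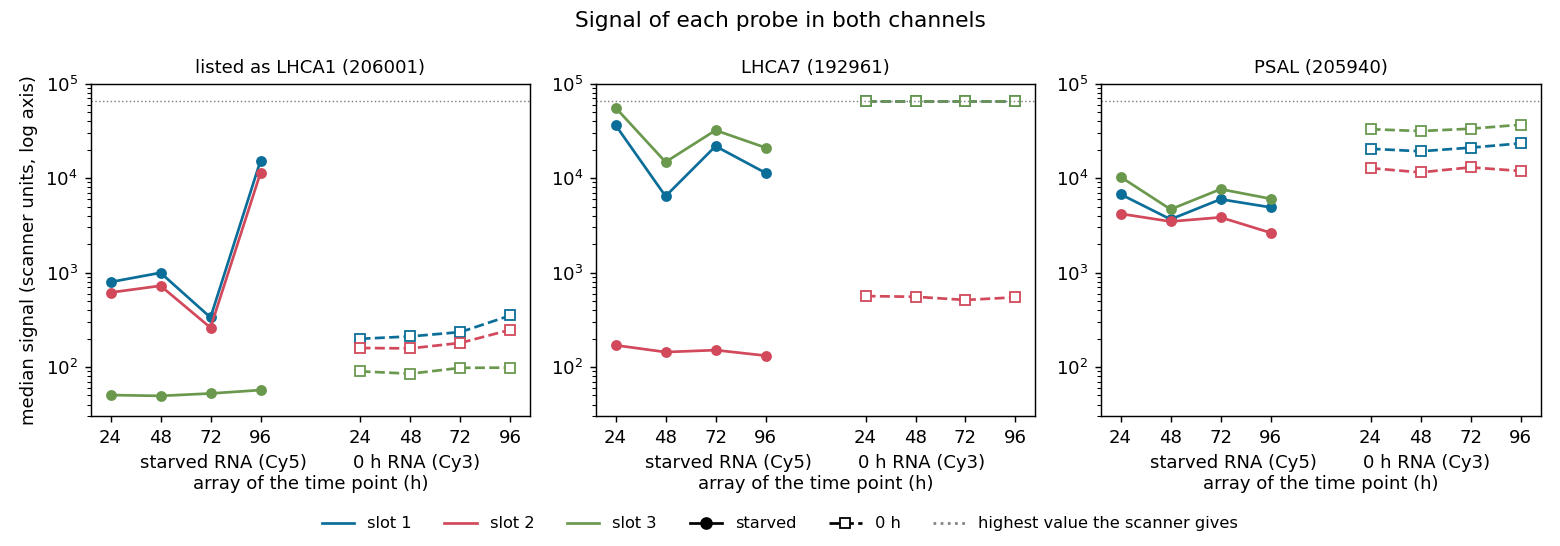
Median signals in scanner units on a log axis are shown for the 3 probes of 206001, LHCA7 (192961) and PSAL, with the starved RNA at 24 to 96 h on the left of each panel and the 0 h RNA on the same 4 arrays on the right. The dotted line is the scanner limit of 65529, at which slots 1 and 3 of LHCA7 lie at 0 h. In 206001 slots 1 and 2 reach 15290 and 11378.5 at 96 h and slot 3 stays between 49.5 and 57 under starvation.

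The mean of 206001 was sensitive to single arrays. Without the 72 h array it was 3.09 ± 2.02 (SD) and was called (limma, adjusted p = 0.0446), and the slope became 1.29 ± 0.15 per 24 h (SE, adjusted p = 0.0284), against 0.93 ± 0.66 with all arrays (adjusted p = 0.632). Without the 96 h array the mean was 1.42 ± 0.89 (SD) and was not called (limma, adjusted p = 0.0577). Over the normalisations tried, the adjusted p fell under 0.05 with the deposited ratios, with median centring and with a smaller offset, whose values stand among those that depend on the processing.

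The second model listed as LHCA1, 184471, did not share this course. It gave −1.65, −2.50, −1.36 and −1.81 at 24, 48, 72 and 96 h, with a mean of −1.83 ± 0.49 (SD, n = 4 arrays), and was called lower (limma, adjusted p = 0.00213). Of its probes 2 were at the scanner limit at 0 h on every array, so this mean is a bound of the decrease. Model 206001 minus 184471 was 3.40, 4.61, 1.77 and 7.23, positive on all arrays. The other pairs with one name differed less on average, but saturated probes limit what this shows. LHCA7 192961 minus 183363 averaged −0.02 ± 0.43 (SD, n = 4 arrays), between −0.53 and 0.37 on single arrays. Both medians rest on probes saturated at 0 h on most arrays, so 2 bounds are compared. The unsaturated probes averaged −2.05 and −2.36. PSAK 192478 minus 144056 averaged 0.25 ± 0.37 (SD, n = 4 arrays), and slot 2 of 192478, its median probe, was saturated at 0 h on 3 arrays.

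The further photosystem I models of the study's tables fell throughout, as 5 of 5 were called lower with a median of −1.83. Beside 184471 these were 183363 with −1.72 ± 0.62, the PSAK model 144056 with −1.97 ± 0.36, PSAH with −1.84 ± 0.39 and PSAO with −1.72 ± 0.88 (SD, n = 4 arrays each). The 3 probes of PSAH reached the scanner limit at 0 h on every array, so its decrease is a lower bound. In 184471, 183363 and PSAO, 2 of 3 probes did so and set the median on most arrays, so their decreases are bounds too. Their unsaturated probes averaged −2.21, −2.36 and −3.46. Of the 12 photosystem I models listed in all, 11 were called lower and 206001 was the exception.

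The electron carriers on either side of the complex gave differing values. Plastocyanin PCY1 (150538), which delivers electrons to photosystem I, was called higher at 1.95 ± 0.21 (SD, n = 4 arrays, limma, adjusted p = 0.000213), from 1 kept probe. FNR1 (195553), which reduces NADP+ with electrons from ferredoxin, gave −0.61 ± 0.55 (limma, adjusted p = 0.0812) and was not called, but its slots 1 and 3 were at the scanner limit at 0 h on every array, and slot 3 also under starvation on 2 arrays. Its unsaturated probe, slot 2, gave −2.31, −1.33, −1.68 and −0.77 at 24, 48, 72 and 96 h, with a mean of −1.52. The ferredoxin FDX2 (159161) gave 0.75 ± 0.20 and stayed under the 2-fold limit (limma, adjusted p = 0.00353). Its slot 1, the one probe well above background at 0 h, gave 3.74, 3.42, 2.64 and 2.42 with a mean of 3.06, whereas slots 2 and 3 were close to background at 0 h and averaged 0.54 and 0.70. The antenna of photosystem II was also called lower in 6 of 6 models tested, of 7 listed, with a median of −3.31 and a range of −4.68 to −1.39. The −3.07 of LHCB5 (184397), which enters the median, is a bound, as its 3 probes were saturated at 0 h on every array. The −1.39 is that of LHCBM7 (184071) and comes from its dim slot 2. Its slots 1 and 3, saturated at 0 h on every array, averaged −0.15 and −2.80. The lists of carriers, photosystem II antenna and further photosystem I models came from the study's tables of genes changed under nitrogen or sulfur starvation. They were made with results of these data known, so their direction is not independent evidence. In these pooled cultures, fewer transcripts per cell and a smaller share of total RNA cannot be told apart.

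The 5 models nearest to the mean course of the 4 falling antenna models included 144056, the second PSAK model, at a root mean square difference of 0.270 on the log2 scale over the 4 arrays. The nearest was 186531 (CHLRE_02g082500v5) at 0.196, with −2.22, −2.88, −1.98 and −2.18 at 24, 48, 72 and 96 h. These values are those of slot 3, saturated at 0 h on every array, and so are bounds. The unsaturated slot 2 of 186531 averaged −3.29. Of the 7358 models with at least 2 kept probes, 87 lay within 0.5 of the antenna course and 0 lay within 0.5 of that of 206001. The nearest to 206001 were 135648 (CHLRE_06g309000v5) at 1.07 and 135713 (CHLRE_06g307500v5) at 1.27. Model 135713 gave 1.00, 2.29, 0.07 and 3.02 at 24, 48, 72 and 96 h and was thus also lowest at 72 h and highest at 96 h, whereas 135648 climbed at each step with 0.69, 1.45, 2.06 and 4.82.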

How the data were processed

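Total RNA was labelled by amplification and hybridised to 4 Agilent arrays of 2 colours. The authors deposited the scanner tables of Agilent Feature Extraction 10.7.3.1 with median signal and background intensity per spot and channel, and log10 ratios (Cy5 over Cy3), which are the same values as in the deposited series table and were used as an alternative after conversion to log2. From the median intensity, background was corrected with normexp (offset 50), arrays were normalised by loess (span 0.3, 4 iterations, control spots without weight) and channel levels were scaled with Aquantile in limma 3.58.1 under R 4.3.3. Probes well above background in either channel on all 4 arrays were kept. The mean of the 4 log2 ratios was tested against 0 with lmFit and eBayes and Benjamini-Hochberg adjustment over all models or probes, and slopes likewise. Saturated probes were kept as bounds. The precision is limited by the 4 arrays. The models and lists were chosen with earlier results of these data known. Companions come from the study's tables, and the 5 models nearest in course were named by the root mean square difference. Alternatives covered normalisation, background, filter, saturation, slot, adjustment and each array left out.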

Additional observations from a re-analysis of the deposited data

Results flagged for a closer look

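The normalised 0 h level of LHCA8 slot 1 (187025) stood apart on the 48 h array, at 16.08 on the log2 scale, compared with 16.01 to 16.02 on the other 3 arrays, a gap of 0.850 of the whole range. This probe was at the scanner limit on all 4 arrays, so the gap is one between scaled values at the scanner limit. Chance marks about 1 in 20 such groups.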

How the results depend on the processing

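The 6 falling models were called lower under every setting applied to all of them except Holm adjustment, which left 1 (LHCA4), and PSAK from slot 1 alone gave −0.43. The mean of 206001 passed the threshold with the deposited ratios (2.97, adjusted p = 0.0258), median centring (2.84, 0.0325) and offset 1 (2.72, 0.0338), and leaving out 1 array gave 1.42 to 3.09. Antenna minus core without 206001 was −0.37 with the deposited ratios, −0.39 with offset 1, −0.069 with probes well above background in both channels, −0.43 without saturated probes, −0.41 with the mean of probes, −1.38 from slot 1, −0.35 from slot 2, −0.81 from slots 1 and 2 and 0.37, of opposite sign, from slot 3, and −0.26 to −0.20 with 1 array left out. With 206001 it averaged 0.0003 ± 0.19 and was −0.30, −0.25, −0.27 and −0.21 with the deposited ratios, offset 1, no saturated probes and the mean of probes, −1.33, −0.19, 0.37 and −0.64 from slot 1, slot 2, slot 3 and slots 1 and 2, and −0.038 to 0.094 with 1 array left out. The causes were not tested. The slot values on single arrays and the deposited ratios of probes were chosen after seeing the data. Among single probes, slots 1 and 2 of 206001 were called with the deposited ratios, median centring and offset 1 (adjusted p = 0.0237 to 0.0338), and 2 more calls moved, LHCA4 slot 2 to −0.92 with median centring and PSAK slot 1 to −1.99 with the deposited ratios. No paired analysis was possible because each time point is 1 array, whose ratio already pairs both RNAs. Saturation and dim signals limit what the probes can show, since a capped 0 h value bounds the fold and a probe near background understates it.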
